A study of Mus musculus with 2 samples.

Results

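The stretch of mouse chromosome 4 at chr4:106873130-115005402 (mm9, 8.13 Mb) was examined through 118 array probes, out of 41174 on the array. A probe was a member when its deposited mm9 position lay wholly inside these limits, and the 2257 remaining probes of chromosome 4 served as the comparison, 2253 of them usable on both arrays. The stretch was chosen with the differences between these arrays in view. The differences below therefore describe these 2 arrays, carry no test and support nothing beyond their size. Through a RefSeq gene table, 96 of the 118 probes were named, for 65 genes, and 22 stayed unnamed, 1 of them because its name belongs to a gene of another chromosome.

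The study compared NIH3T3 cells (a mouse embryonic fibroblast line) after stable transfection with the pcDNA3.1 vector or with pcDNA3.1-MARVELD1, both selected in G418. The MARVELD1 protein spans membranes through its MARVEL domain. Total RNA of each line was read on 1 single-colour Agilent array, so there are no replicates, and no p-value or error between groups can be given. Whether each stable line is a clone or a pool, and which promoter drives the insert, is not given in the sources used here. In bulk RNA, fewer cells of a kind and less RNA per cell cannot be told apart.

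Genes that lie side by side share chromatin surroundings and chromosome copies, but they need not share function. The stretch has gene-dense ends around a gene-poor centre. The first 3 Mb hold housekeeping genes of splicing, replication, lipid handling and protein turnover. The centre holds Agbl4, a tubulin deglutamylase gene, and the Skint genes, which encode butyrophilin-like membrane proteins of thymus and skin epithelium. The far end holds the transcription factor genes Foxd2, Foxe3 and Tal1 and the beginning of the Cyp4 cluster of fatty acid hydroxylases. DNA copy number was not analysed here.

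All 118 member probes were single spots of 60 bases. The sequences shown first are those of the probes whose agreement or disagreement bears most on reading the values. Eps15, an adaptor of clathrin-coated endocytosis, had 3 probes that gave different answers. Cdkn2c, the gene of the CDK inhibitor p18INK4c, had 2 probes that share 40 bases and gave nearly the same answer. A stretch of 30 bases of each probe is printed as deposited, with the 20 bases that both Cdkn2c stretches hold in capitals.
Eps15 A_52_P225514, bases 1 to 30, chr4:108997969-108998028, plus strand: tggattttattcccatgtaaaactaaatag
Eps15 A_51_P156243, bases 1 to 30, chr4:109058132-109058191, plus strand: gtgcatcaaactacctatgagcatgggata
Eps15 A_52_P360595, bases 1 to 30, chr4:109060021-109060080, plus strand: catatctatatctccatgcttgagtgtata
Cdkn2c A_51_P513719, bases 31 to 60, chr4:109333779-109333838, minus strand: GTTGGCTGTCCGTTTCACTAtcacttatta
Cdkn2c A_51_P513720, bases 1 to 30, chr4:109333757-109333818, minus strand: ccgttagttgGTTGGCTGTCCGTTTCACTA

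Intensities are the scanner program's processed, background-subtracted signals. A log2 difference is the value of the array labelled MARVELD1 minus that of the empty vector array, after each array's log2 intensities were set relative to their 75th percentile (768.1 and 703.3). Of the probes on the arrays, 68.7% and 69.0% of spots were well above background. For probes printed many times, the SD of a difference between single spots was 0.42 at intensities under 200, 0.33 from 200 to 1000 and 0.17 above 1000, which covers spot noise only. Marveld1 itself read 8724.7 and 6292.8 by one probe and 184.4 and 126.4 by the other, empty vector array first, so neither probe was brighter on the array labelled MARVELD1. Whether these probes read the plasmid's insert is not known, and every direction below rests on the label. All 11 fibroblast markers, Col1a1 and Vim among them, were well above background on both arrays, 10 of them over 1000 on each, as were 1 of 4 epithelial, 2 of 4 leukocyte and 2 of 3 endothelial markers. The brightest of these others read 218.8 and 211.2 among epithelial, 245.6 and 268.1 among leukocyte and 1288.6 and 708.5 among endothelial markers, and Epcam and Cdh1 were not well above background on either array. Their part in the values below was not tested. The choice of scaling moves the differences, by amounts that vary between probes except with the array median and the authors' table. The array median shifts all probes alike, and the authors' table does so, within 1%, for 99.6% of its probes. The 75th percentile, the array median and the authors' table thus differ by little more than a constant. The median of all probes was 0.15 with the 75th percentile, 0.04 with the array median, 0.04 with quantile normalization and 0.00 after loess. Over 6 scalings, which add normexp and the authors' table, 50 of the 79 measured members were lower under each, 21 higher under each, and 8 changed sign, none larger than 0.21 in size with the 75th percentile. Those of the 8 named below are Ndc1, Magoh, Cpt2, Orc1, Kti12, 1 Eps15 probe and 1 Faf1 probe.

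Members of the stretch were on the whole slightly lower on the array labelled MARVELD1, by little more than the rest of their chromosome. Both arrays measured 79 of the 118 probes well above background, 4 more were so on the empty vector array only, and 35 on neither. The 79 measured probes had a median log2 difference of -0.17 with an interquartile range of -0.52 to 0.21. The 1495 measured probes of the rest of chromosome 4 had a median of -0.05 with a range of -0.40 to 0.24. The segment's median was -0.12 relative to the rest. By the brightest probe of each named gene, 48 member genes had a median of -0.22, against -0.05 for 877 genes of the rest of the chromosome. With the outer 1 Mb at each end left out, the distance between the medians of probes shrank from -0.12 to -0.04, and that of genes from -0.18 to -0.08.

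**Figure D1:**
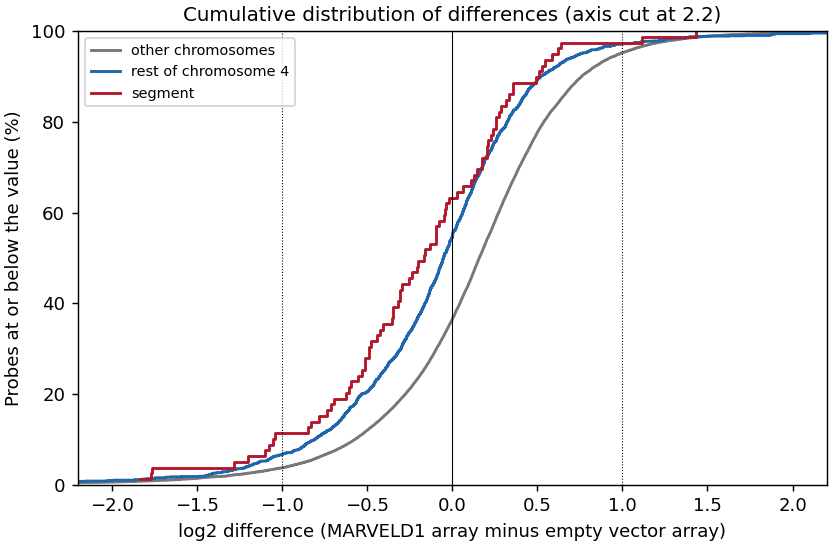
Cumulative share of probes (percent, vertical) at or below each log2 difference (horizontal), for the 79 measured probes of the segment, 1495 of the rest of chromosome 4 and those of the other chromosomes. The segment and the rest of chromosome 4 run close together, with medians of -0.17 and -0.05, and both lie left of the other chromosomes, whose median is 0.16.

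Past 2-fold, 9 of the 79 measured member probes were lower and 2 were higher. That is 11.4% and 2.53%. Over all 26802 measured probes, 3.89% were lower and 4.61% higher, and on the rest of chromosome 4 6.62% were lower and 2.81% higher. Since the stretch was chosen on this contrast, nothing is read from the excess of lower probes. By the brightest probe of each gene, 5 of 48 member genes were lower and 1 was higher. The shares over 15536 named genes were 3.08% lower and 4.45% higher, and over the genes of the rest of chromosome 4 5.70% and 2.74%. Most members differed little: 68 of the 79 probes lay within 2-fold. Of the 11 past 2-fold, 4 were so under all 6 scalings (Trabd2b, Cmpk1 and 1 probe each of Eps15 and Yipf1). The other 7 came under 2-fold with at least 1 scaling: both Spata6 probes (-0.96 each at the smallest), 9630013D21Rik (-0.98), Glis1 (-0.90), Zyg11b (-0.74), Dmrta2 (0.74) and A_52_P1141039 (0.73).

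**Figure D2:**
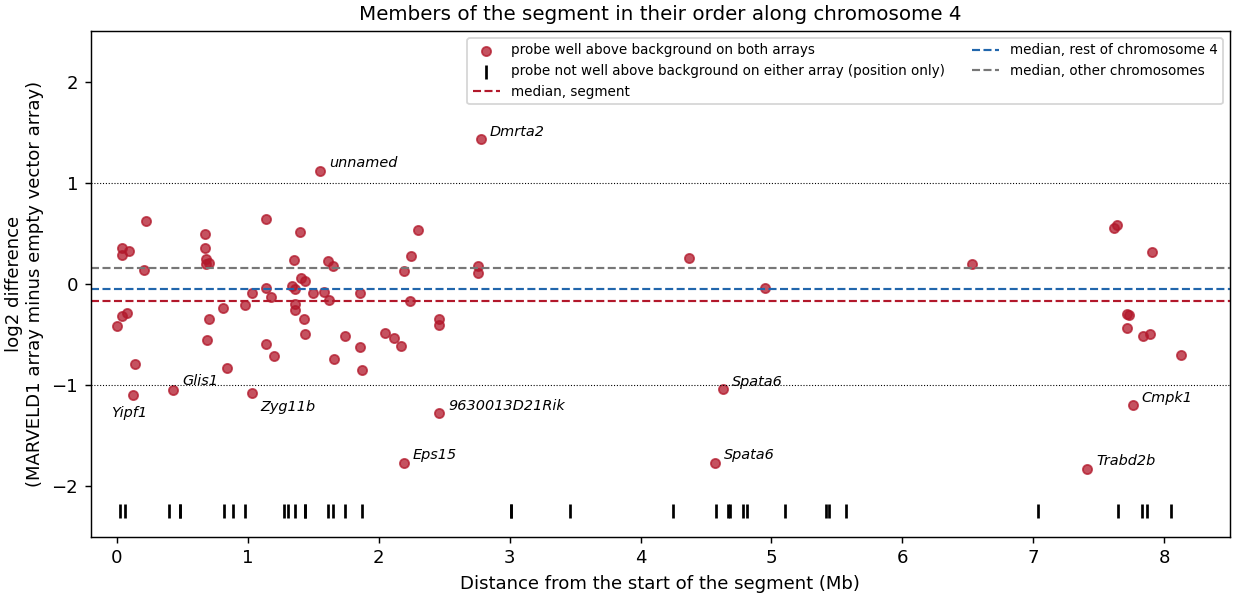
Log2 difference (vertical) of each of the 79 measured probes against its distance from the start of the segment in Mb (horizontal), with ticks below for the 35 probes not well above background. Named points are the 11 past 2-fold, and the dashed lines are the medians of -0.17 for the segment, -0.05 for the rest of chromosome 4 and 0.16 for the other chromosomes.

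Trabd2b, which encodes a membrane metalloprotease that cleaves Wnt ligands (also known as Tiki2), had the largest difference of all measured members. Its only probe (chr4:114282852-114282911) read 1145.6 and 294.2, empty vector array first as in all pairs here, 3.57-fold lower, a log2 difference of -1.83. Spata6, a gene needed to build the connecting piece of the sperm tail, was lower by both measured probes. Its brighter probe read 1087.5 and 483.6, 2.06-fold lower, and a probe upstream of it read 199.7 and 53.7, 3.40-fold lower. Its remaining probe was at background level on both arrays.

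Eps15 was past 2-fold lower by 1 of its 3 probes, and lower by less than 2-fold by another. The middle probe in the order printed above, A_51_P156243, read 4135.8 and 1113.1, 3.40-fold lower. The next probe downstream, A_52_P360595, read 4209.9 and 4211.4, a log2 difference of 0.13. The most upstream one, A_52_P225514, read 184.3 and 116.8, a difference of -0.53. The differences of -1.77 and 0.13 lie much further apart than the spot noise of 0.17 at this brightness. The level of Eps15 as a whole is therefore not settled by these probes. The 2 overlapping Cdkn2c probes, by contrast, read 14205.2 and 9817.9, and 11009.9 and 7912.8, which are differences of -0.41 and -0.35.

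Genes of cell division and DNA replication, 7 of which lie in the stretch, included 2 members past 2-fold lower and 0 past 2-fold higher, beside 3.08% and 4.45% of all named genes. Their median was -0.41, against 0.18 over all named genes. The nearer comparisons are -0.22 over the 48 member genes and -0.05 over the genes of the rest of chromosome 4. Cmpk1, the UMP-CMP kinase that supplies pyrimidine nucleotides, read 6356.7 and 2528.8, 2.3-fold lower, by its only probe. Spata6, described above, was the other, and came under 2-fold with another scaling. Neither is known as a regulator of the cell cycle, and the other 5 genes of the list lay between -0.51 and 0.20. Stil, a centriole duplication gene, gave -0.51 by its bright probe (863.0 and 553.1). Another Stil probe read 97.0 and 39.1, the second not well above background, which gives a bound of 2.27-fold lower. This is the observed fold, since 39.1 lies above the lowest well-measured intensity of 33.8. The spot noise at this brightness is 0.42, and the bound was taken with the 75th percentile. Cdkn2c was under 2-fold by both probes. Orc1, the large subunit of the origin recognition complex, read 1834.0 and 1755.8, a difference of 0.06. Ndc1, a membrane nucleoporin gene, and Magoh, an exon junction complex gene, gave 0.14 and 0.20, and these 3 small differences turned negative under other scalings.

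By their brightest probes, 0 of the 5 lipid and sterol genes passed 2-fold in either direction, and their median was -0.21. Among all named genes 3.08% were past 2-fold lower and 4.45% higher. Scp2, the peroxisomal sterol carrier and thiolase gene, read 5852.4 and 3017.8, 1.78-fold lower, and passed 2-fold with another scaling (-1.04 at the lowest). Osbpl9, an oxysterol-binding protein gene, read 24931.8 and 14813.6 by its brighter probe (-0.62) and 556.3 and 283.5 by its dimmer one (-0.85). It is among the genes of the stretch that were lower by every measured probe. Lrp8, the receptor for apolipoprotein E and reelin, was higher by all 3 probes, at 0.49, 0.36 and 0.25. Its brightest probe read 348.4 and 448.4, where the spot noise is 0.33. Cpt2, the inner mitochondrial carnitine palmitoyltransferase, gave 0.21, with a changing sign between scalings, and Echdc2, an enoyl-CoA hydratase domain gene, -0.21.

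Of 13 genes for endocytosis, ubiquitin and protein handling, 12 were measured. By their brightest probes 0 were past 2-fold in either direction, with a median of -0.09. Among all named genes 3.08% were past 2-fold lower and 4.45% higher. By another probe, however, Eps15, Yipf1 and Zyg11b were each past 2-fold lower. Eps15 entered this count at 0.13. Its probe that was 3.40-fold lower was nearly as bright on the empty vector array (4135.8 against 4209.9). Yipf1, a Golgi membrane protein gene, read 1235.7 and 656.5 by its brighter probe, 1.72-fold lower, and 644.5 and 275.1 by the other, 2.15-fold lower. Zyg11b, a substrate receptor of a cullin ubiquitin ligase, gave 2 answers: 222.2 and 190.8 (-0.09) by its brighter probe, and 181.6 and 78.8, 2.11-fold lower, by a probe 2814 bases upstream. Tmem59, a membrane protein gene of the endosomal system, gave -0.42. The ubiquitin-binding Faf1 gave 0.11 and 0.18, the first of which changed sign between scalings, and the ubiquitin ligase gene Rnf11 gave 0.28. Lrrc42, a leucine-rich repeat gene near the start of the stretch, was the highest of the group, at 631.5 and 739.7 (0.36) and 417.5 and 466.4 (0.29). Hspb11, an intraflagellar transport gene, gave -0.29, Kti12 0.18 with a changing sign, and Btf3l4 -0.16 and 0.23 by 2 probes. For Nrd1, encoding the protease nardilysin, the difference was -0.09.

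Redox genes were lower in 2 of 3 cases, with a median of -0.71. Past 2-fold were 0 of the 3, beside 3.08% lower and 4.45% higher among all named genes. Txndc12, a thioredoxin-like protein gene of the endoplasmic reticulum, read 6763.8 and 3719.7, 1.66-fold lower. Gpx7, a glutathione peroxidase of the same compartment, read 2764.3 and 1543.0, 1.64-fold lower. The log2 differences were -0.74 and -0.71. Dio1, the deiodinase that activates thyroid hormone, read 67.5 and 77.7, near the lowest well-measured intensities of 33.0 and 33.8. Calr4, a calreticulin family gene in none of the lists, read 3284.2 and 2159.4, a difference of -0.48.

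By their brightest probes, the 4 measured of 5 RNA processing and mitochondrial genes lay between -0.26 and 0.20, at a median of -0.12. Past 2-fold were 0 in either direction, beside 3.08% lower and 4.45% higher among all named genes. The other probes of Coa7, given below, lay further apart. Prpf38a, a spliceosome factor, read 5347.1 and 4251.3 (-0.20). Tut4, the terminal uridylyltransferase that tails let-7 precursors, read 2489.1 and 1909.6 by its only measured probe (-0.26), and its other 3 probes stayed at background. Coa7, a respiratory chain assembly factor, gave -0.59, -0.04 and 0.64 by 3 probes along the gene, of which the middle one was the brightest at 3459.0 and 3089.6. Elavl4, a neuronal RNA-binding protein gene, was at background by both probes.

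Transcription factor genes held 1 lower and 1 higher member past 2-fold, among the 3 of 6 that were measured, beside 3.08% and 4.45% of all named genes. Both came under 2-fold with another scaling, Glis1 at -0.90 and Dmrta2 at 0.74. Glis1, a Krüppel-like zinc finger gene, read 848.7 and 374.4, 2.08-fold lower. Dmrta2, a doublesex-related factor of the developing brain, read 52.2 and 128.9, 2.69-fold higher, at intensities where the spot noise is 0.42. Foxe3, a lens factor, read 53.4 and 39.5 (-0.31). Foxd2 was well above background on the empty vector array only (61.1 against 49.4), with a bound of 1.13-fold. The opposite-strand gene Foxd2os read 2276.8 and 1687.6 by one probe and 661.6 and 445.5 by the other, differences of -0.30 and -0.44. Tal1, the blood stem cell factor, and Dmrtb1, a testis factor, were at background level.

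Matrix and membrane protein genes had 5 of 8 members measured, 4 lower and 1 higher, with a median of -0.49. Trabd2b was the only one past 2-fold, beside 3.08% lower and 4.45% higher among all named genes. The higher gene was Lrp8, described above with the lipid genes, at 0.49. Rab3b, a secretory vesicle GTPase gene, read 1186.2 and 761.9 (-0.51). Pdzk1ip1, a small membrane protein gene next to Tal1, read 1760.5 and 1147.7 (-0.49). Slc1a7, a glutamate transporter gene, read 118.7 and 92.3 (-0.24). The small proteoglycan gene Podn, the glucose transporter gene Slc5a9 and Ldlrad1 were at background on both arrays.

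The gene-poor centre gave little signal. Of 7 named Skint genes, each with 1 probe, only Skint4 was well above background on both arrays, at 175.0 and 155.4 (-0.04). Skint9 was so on the empty vector array alone, and the other 5 were not on either. Agbl4 read 65.5 and 71.8 (0.26), and its neighbour Bend5 was at background. The list of 8 genes around Agbl4 had 6 measured, with a median of 0.18 that ranged from -0.07 to 0.18 over the scalings. Between 3 and 7 Mb from the start, 5 of 19 probes were measured, 2 of them the Spata6 probes. In the Cyp4 cluster, Cyp4x1 read 311.7 and 355.9 (0.32), Cyp4a12a read 1601.2 and 904.6 (-0.70) and Cyp4a29 was at background. No other probe on the array shares 25 bases in a row with the Cyp4a12a probe, but the family is closely related and its signals are uncertain.

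Among the 13 measured unnamed probes and the 8 measured genes in no list, 1 probe of each direction passed 2-fold. Over all measured probes 3.89% were past 2-fold lower and 4.61% higher. The RNA 9630013D21Rik (chr4:109329014-109329073), just beside Cdkn2c, read 241.3 and 90.7, 2.44-fold lower. The unnamed probe A_52_P1141039 (chr4:108428068-108428127) read 107.4 and 213.4, 2.17-fold higher. The 13 measured unnamed probes had a median of 0.20. A further bound came from 4930430J20Rik, which was at least 2.07-fold lower, since it read 76.4 on the empty vector array and was at background on the other. Czib, Cc2d1b and Ttc39a gave -0.35, -0.35 and -0.17 by their brightest probes, and Zfyve9, a SMAD anchor for TGF-beta receptors, -0.09 and -0.49.

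At the limits of the stretch, members just inside and probes just outside gave the following values. The first member, a Tmem59 probe, overlaps another Tmem59 probe that starts 20 bases earlier and so falls outside. The member read 16139.1 and 11023.4 (-0.42), and the outside probe 17638.0 and 9642.6 (-0.74). Another Tmem59 probe outside read 189.5 and 163.0 (-0.09). Further out, Tceanc2 gave -0.05 and -0.18 and Cdcp2 0.27. The last member is Cyp4a12a at -0.70. Beyond it, Cyp4a12b gave -0.17, Cyp4a14 read 155.6 and 528.1 (1.89), and Cyp4a10 read 689.8 and 1358.0 (1.10) by one probe and 123.7 and 99.6 (-0.19) by another.

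Along the stretch, the medians of 1 Mb windows with at least 10 measured probes were -0.21, -0.09, -0.26 and -0.37, the last of them from 7 to 8 Mb. No window of this kind was above 0. The 63 measured probes of the first 3 Mb had a median of -0.13, with 5 past 2-fold lower and 2 higher. The 11 measured probes of the last stretch from 7 Mb on had a median of -0.44, with 2 lower and 0 higher. Flanks as wide as the stretch had medians of -0.13 (68 probes, toward the centromere) and -0.07 (186 probes, beyond its end). Past 2-fold, 7.35% and 9.14% of the flanks' probes were lower, and 2.94% and 2.69% higher. In the stretch 11.4% were lower and 2.53% higher, and over all measured probes 3.89% and 4.61%.

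**Figure D3:**
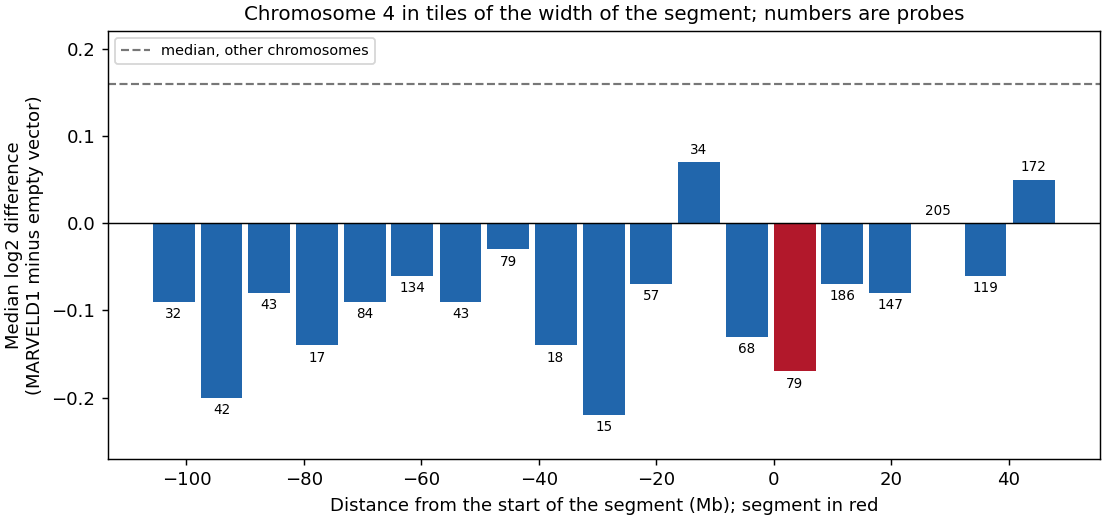
Median log2 difference (vertical) of measured probes in tiles as wide as the segment, by their distance from its start in Mb (horizontal), with the number of probes at each bar. The segment, in red, is at -0.17, and among the 16 tiles with 20 probes or more 1 other lies lower, at -0.20 with 42 probes.

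Chromosome 4 as a whole had the lowest median of the 20 chromosomes compared, at -0.06 over 1574 measured probes, followed by chromosome 13 at -0.02. The other chromosomes together had a median of 0.16. The order of these 2 chromosomes was the same with the array median, quantile normalization, loess, normexp and the authors' table. Against all other chromosomes the members lay 0.33 lower, against the rest of chromosome 4 0.12 lower, and against the flanks 0.08 lower. Which part of the low values is shared by the chromosome and which lies in the stretch was not tested.

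**Figure D4:**
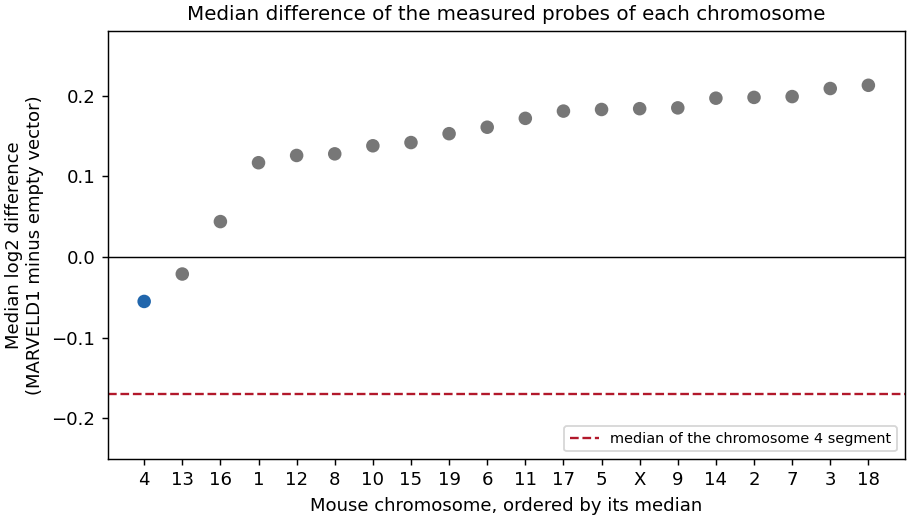
Median log2 difference (vertical) of the measured probes of each of 20 chromosomes (horizontal), ordered from the lowest. Chromosome 4, in blue, is lowest at -0.06, and the dashed line shows the segment at -0.17.

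The members' median difference went with the brightness of their probes, and the differences of many genes with the place of the probe. With all probes split into 3 equal classes of brightness, members in the brightest class had a median of -0.30 (30 probes), against -0.10 for the rest of chromosome 4 and 0.23 for all probes of that class. In the middle class the members were at -0.21 (25 probes), against -0.09 and 0.06. In the dimmest class they were at -0.01 (24 probes), against 0.08 and 0.15. Over all probes the medians thus had no downward order with brightness. The members past 2-fold lower did not become more frequent with brightness. They were 3 probes of the dimmest class, 4 of the middle and 2 of the brightest, beside 3.89% of all measured probes. In 12 of 15 member genes with several measured probes, the most upstream probe was lower than the most downstream one. The same held for 66.8% of 5374 genes on the array and for 65.4% of 301 on the rest of chromosome 4, with medians of -0.23 in both and -0.21 in the stretch. The widest gaps were in Coa7 (-1.23), Zyg11b (-0.98), Spata6 (-0.73) and Eps15 (-0.66). With only the most downstream probe of each gene, the members' median was -0.25 and that of the rest of chromosome 4 -0.02. The part of brightness or probe position in the low values of the stretch was not tested.

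**Figure D5:**
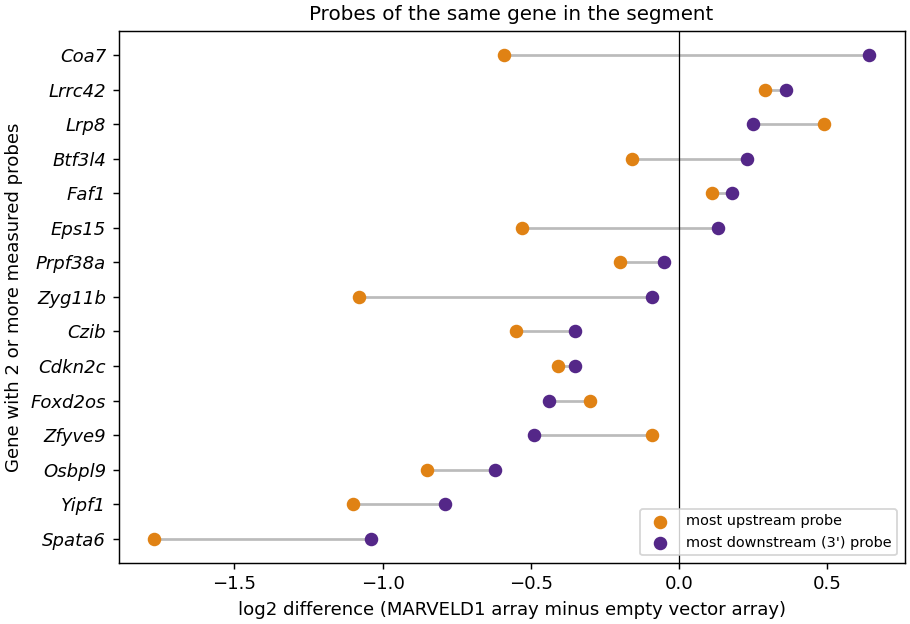
Log2 difference (horizontal) of the most upstream and most downstream measured probe of each of the 15 member genes with several (vertical), joined by a line. The upstream probe lies to the left in 12 of 15 genes, with the widest gap, -1.23, in Coa7.

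Promoter composition is a feature the choice of members did not use. For 57 of the 65 named genes, RefSeq (GRCm38.p6) gave the 250 bases before the start, taking the first start listed. Members with a probe measured on both arrays had a median of 15 CpG dinucleotides there (43 genes), members with no probe above background 2.5 (12 genes), and the 27025 genes of the whole set had a median of 6. At least 10 CpG were found in 57.9% of the matched members and in 38.2% of all genes. The share was 65.1% among members measured on both arrays and 33.3% among those with no probe above background. The latter 12 genes include Skint1, Skint3, Skint7, Skint10 and Skint11, of 1 gene family, with 0 or 1 CpG each. The others were 4930552P06Rik (2), Cyp4a29 (3), Tal1 (6), Elavl4 (14), Bend5 (19), Dmrtb1 (21) and Podn (32). The part of the Skint family in the low median of the undetected members was not tested. The motif TATAAA, searched on both strands, was in 6 of the 57, or 10.5%, against 13.0% of all. These are matches of letters and show no activity. Of the 5 genes past 2-fold lower, 4 were matched, with 9 to 41 CpG. Upstream stretches are shown for a lower member, the higher member and an undetected one, with each CG in capitals, as examples of CpG content. The undetected members ranged from 0 to 32 CpG, so Skint3 does not stand for all of them.
Cmpk1, 17 CpG, chr4:114987229-114987478, minus strand: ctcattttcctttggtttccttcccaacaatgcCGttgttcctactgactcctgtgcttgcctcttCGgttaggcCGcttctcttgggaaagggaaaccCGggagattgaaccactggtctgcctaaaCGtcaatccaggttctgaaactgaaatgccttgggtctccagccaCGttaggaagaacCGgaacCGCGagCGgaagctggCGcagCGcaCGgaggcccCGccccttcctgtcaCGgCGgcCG
Dmrta2, 19 CpG, chr4:109977775-109978024, plus strand: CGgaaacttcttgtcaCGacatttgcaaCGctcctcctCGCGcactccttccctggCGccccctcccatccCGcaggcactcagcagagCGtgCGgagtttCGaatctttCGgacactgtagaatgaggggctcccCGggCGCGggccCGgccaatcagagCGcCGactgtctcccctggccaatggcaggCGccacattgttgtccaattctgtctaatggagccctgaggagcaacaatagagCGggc
Skint3, 1 CpG, chr4:112231995-112232244, plus strand: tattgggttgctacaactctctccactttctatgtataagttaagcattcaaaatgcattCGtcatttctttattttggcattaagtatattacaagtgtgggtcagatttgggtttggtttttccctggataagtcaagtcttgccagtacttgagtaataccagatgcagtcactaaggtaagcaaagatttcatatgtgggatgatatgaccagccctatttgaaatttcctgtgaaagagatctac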

How the data were processed

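Per the file headers, Agilent Feature Extraction 9.5.3.1 made the deposited intensity of each spot, background-subtracted and detrended, on a design annotated to mm9. Both arrays were scanned at the same time on 1 slide. The authors' deposited table of normalized intensity equals those values divided by 1 factor per array (124.6 and 123.3) for 99.6% of 26829 probes, within 1%; its column medians were 3.11 and 2.94. Here, outlier spots (116 and 223) were left out, 0 spots were saturated, log2 intensities were set relative to the 75th percentile and spots of a probe were averaged. A probe dim on 1 array gets a bound against the higher of its own dim value and the lowest well-measured intensity of that array. Probes were named by accession (71), symbol (21) or older name (4) through RefSeq (GRCm38.p6). limma 3.58.1 in R 4.3.3 gave quantile, loess (span 0.4) and normexp (offset 50) values. The medians, the choice of brightest probe and the 2-fold count were tried on simulated differences with a larger planted shift than seen here. Scaling, outlier removal, the background filter and the bounds were not part of that trial. Members and lists were chosen with earlier results of these data known. The genes described by rule are members past 2-fold in either direction or by a bound, the 2 highest, 2 lowest and 2 brightest genes of each list, the 3 named genes nearest each end inside and outside, and Marveld1; others were chosen after their values were seen. No test was made, with 1 array per group, and p-values are not given. The alternatives of scaling, background, filter, probes per gene, limits of the stretch and fold limit are in the closing section.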

Additional observations from a re-analysis of the deposited data

How the results depend on the processing

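The median of the members stayed below that of the rest of chromosome 4 under every alternative run. For probes, the distance of -0.12 became -0.06 with dim probes kept and -0.04 without the outer 1 Mb at each end. Under alternatives added after seeing the data it was -0.22 with 1 probe per gene, the most 3-prime, -0.23 with probes brighter than the median and -0.33 against all other chromosomes. The other 8 alternatives moved it by less than 0.043, the spot noise of such a median. For genes, the distance of -0.18 was -0.11 with normexp, -0.08 without the outer 1 Mb, -0.27 with the brighter probes and -0.42 against all other chromosomes. The 2 higher probes of 79 became 0 with normexp, 4 at 1.5-fold and 0 at 3-fold. They became 5 of 118 without the filter, 1 of 48 with the most 3-prime probes and 0 of 47 with the brighter ones. The 9 lower probes of 79 became 5 with normexp, 18 at 1.5-fold and 3 at 3-fold. They became 5 of 47 without the outer 1 Mb, 5 of 61 when probes of a gene were averaged and 5 of 48 with the most 3-prime probes. With the main setting 3.89% of all measured probes were lower and 4.61% higher. Shares over all probes with the other settings are not given, so nothing is read from these counts. Fewer probes are counted without the outer 1 Mb, with averaged, most 3-prime or brighter probes, and more without the filter; the cause was not tested for the others. No paired analysis was possible because each group has 1 array. Of the 118 members, 35 had no signal well above background, so differences in them could not be seen.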

Other observations

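Medians were also taken by the strand of a member and the base composition of its probe. The 52 measured probes on the plus strand had a median log2 difference of -0.19 and the 27 on the minus strand -0.16. The median GC content of the measured member probes was 40.0%, against 43.3% on the rest of chromosome 4. Members with probe GC below their median were at -0.13 (33 probes, 2 of them past 2-fold lower), and the others at -0.22 (46 probes, 7 of them past 2-fold lower). The distance between these medians is close to that between the stretch and the rest of its chromosome, and its part in that was not tested. Past 2-fold lower were 3.89% of all measured probes and 6.62% of those on the rest of chromosome 4. Across the 79 probes, which share both arrays, Pearson's r between GC content and difference was 0.04. It was 0.01 on the rest of chromosome 4 and -0.07 across all 26802 probes.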
